A study of Mus musculus with 4 samples.

Results

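The regions described here are stretches of open chromatin far from gene ends that both control peak lists of a mouse melanoma line contained and that 1 of the 2 lists from cells with a guide against Arid1a lacked. Overlapping peaks of the 4 lists were merged into 103629 regions. Of these, 59305 lay more than 1 kb from both ends of every protein-coding gene and held a peak in both control lists. The members were the 10122 of them that held a peak in exactly 1 of the 2 lists from cells with the Arid1a guide, or 17.1% (95% Clopper-Pearson interval 16.8% to 17.4%). They were chosen by the measured peaks of all 4 lists, so their peak presence, strength and length are given as a description and were not tested.

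ATAC-seq was used to find open chromatin: the Tn5 transposase cuts accessible DNA and tags it for sequencing. It was run with the Omni-ATAC protocol and 50000 cells in each reaction. The cells were B16F10, an established mouse melanoma line, grown in vitro. One group carried a guide RNA against Arid1a (sgArid1a, n = 2) and the other a scrambled guide (sgScramble, n = 2). All 4 libraries came from the same line, and the labels give no clone, time after the guide or separate culture for a replicate, so the spread between replicates may be technical. The lists hold no read counts, so depth is unknown, and the intervals given here cover counting error over regions only. Of 10 marker genes of the melanocyte lineage, 9 had at least 1 distal region in both sgScramble lists within 50 kb of a gene end, and Mc1r had none. Over all 21887 protein-coding genes 13275 had such a region, so the marker count does not by itself show the lineage.

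Distal open regions hold many of the enhancers that set which genes a cell type uses. Arid1a encodes a large subunit of the BAF complex, an ATP-driven remodeller of the SWI/SNF family that slides or ejects nucleosomes and keeps many enhancers accessible. Arid1b encodes the closest relative of that subunit, and a BAF complex carries one or the other. In melanocytes and melanoma cells, BAF complexes work with Mitf and Sox10, transcription factors that define the lineage. The series title links ARID1A to R-loops, which are RNA:DNA hybrids, to the DNA-sensing adaptor STING and to type I interferon.

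A sequence could be shown only where a reference promoter window lay wholly inside a member. RefSeq windows of 300 bases around gene starts (GRCm38.p6) fell inside 96 members, or 0.948% of them. Of the windows counted, 71 belonged to long noncoding RNA genes and 25 to protein-coding genes whose listed start lay away from the ends of the annotated gene. The 6 windows printed here belong to the strongest such members on chromosomes other than 18, 3 of each kind. Capitals mark matches, on either strand, to an AP-1 motif (TGANTCA), a TEAD motif (GGAATG), an E-box (CANGTG), the box spelled CCAAT, the GC box (GGGCGG) or the TATA box (TATAAA), and a window without capitals held none of these. The first 3 members had no peak in sgArid1a replicate 1, and the other 3 had none in sgArid1a replicate 2. The windows are those of Gm32067 (chr13:78483214-78483513, plus strand), Gm39095 (chr7:129810597-129810896, plus), Gm30338 (chr11:121794680-121794979, plus), Gm35307 (chr14:62034617-62034916, plus), Ttll6 (chr11:96133536-96133835, plus) and Gm33624 (chr10:119001146-119001445, minus).
Gm32067: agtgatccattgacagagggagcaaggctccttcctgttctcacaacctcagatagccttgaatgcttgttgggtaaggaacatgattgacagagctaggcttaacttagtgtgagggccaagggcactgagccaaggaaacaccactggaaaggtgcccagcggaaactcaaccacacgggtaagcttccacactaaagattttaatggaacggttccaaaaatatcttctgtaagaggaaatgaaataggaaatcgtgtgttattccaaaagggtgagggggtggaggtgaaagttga
Gm39095: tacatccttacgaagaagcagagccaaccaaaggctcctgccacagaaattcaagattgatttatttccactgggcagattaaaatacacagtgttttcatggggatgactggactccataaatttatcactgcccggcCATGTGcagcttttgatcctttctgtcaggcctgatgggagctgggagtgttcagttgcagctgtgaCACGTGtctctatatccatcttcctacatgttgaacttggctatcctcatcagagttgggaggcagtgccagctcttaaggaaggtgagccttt
Gm30338: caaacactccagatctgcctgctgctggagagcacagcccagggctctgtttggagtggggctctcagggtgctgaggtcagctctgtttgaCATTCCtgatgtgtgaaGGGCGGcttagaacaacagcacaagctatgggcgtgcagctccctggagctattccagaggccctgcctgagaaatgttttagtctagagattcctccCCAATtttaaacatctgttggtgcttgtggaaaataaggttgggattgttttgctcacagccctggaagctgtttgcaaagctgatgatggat
Gm35307: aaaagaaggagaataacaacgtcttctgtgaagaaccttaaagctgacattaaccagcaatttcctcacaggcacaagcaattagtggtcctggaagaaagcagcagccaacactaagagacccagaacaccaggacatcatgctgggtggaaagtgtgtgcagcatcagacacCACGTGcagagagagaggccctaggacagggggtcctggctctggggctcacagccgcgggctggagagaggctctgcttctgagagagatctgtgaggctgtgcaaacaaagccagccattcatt
Ttll6: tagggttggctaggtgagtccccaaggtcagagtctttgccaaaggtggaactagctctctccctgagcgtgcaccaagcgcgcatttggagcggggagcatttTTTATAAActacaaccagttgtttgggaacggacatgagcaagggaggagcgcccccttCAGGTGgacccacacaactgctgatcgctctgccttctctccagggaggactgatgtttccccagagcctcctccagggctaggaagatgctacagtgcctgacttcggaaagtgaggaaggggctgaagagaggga
Gm33624: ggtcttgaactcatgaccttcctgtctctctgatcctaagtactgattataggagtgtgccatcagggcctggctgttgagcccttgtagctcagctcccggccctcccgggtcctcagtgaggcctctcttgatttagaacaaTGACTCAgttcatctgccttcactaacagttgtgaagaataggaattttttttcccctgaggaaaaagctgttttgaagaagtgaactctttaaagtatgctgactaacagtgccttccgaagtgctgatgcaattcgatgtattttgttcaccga

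The windows inside members held fewer CpG pairs and fewer GC boxes than windows inside distal regions that kept a peak in every list. The median window held 4 CpG pairs and 50.3% GC in members, against 3.5 and 49.8% in the 50 windows of regions that both sgArid1a lists lacked, and 12 and 56.7% in the 1652 windows of regions in all lists. A GC box was present in 12 of the 96 member windows (12.5%), against 16% and 46.6% in the other classes and 35.6% of all 32815 windows. The windows were also split by the strength of their region, a mean percentile in the sgScramble lists that ranks peaks by the authors' fold, at the 50th percentile. The GC box share was 11.6% in weaker and 14.8% in stronger members, against 47.2% in weaker and 46.4% in stronger regions of all lists. The classes also differ in the kind of gene, since 707 of the 1652 windows in regions of all lists belonged to long noncoding RNA genes and 945 to protein-coding genes. Among noncoding genes the GC box share was 9.86% in members (n = 71), against 29.3% in regions of all lists, with medians of 4 and 7 CpG pairs. Among protein-coding genes it was 20% in members (n = 25), against 59.6%, with medians of 4 and 18 CpG pairs. An AP-1 motif, the site of Fos and Jun family factors, was found in 13 member windows (13.5%), against 6% and 7.87% in the other classes and 7.81% of all windows. Its share was 15.5% in noncoding and 8% in protein-coding member windows, against 10.3% and 6.03% in regions of all lists. The other shares in member windows were 19.8% for TEAD, 40.6% for the E-box, 25% for the CCAAT box and 17.7% for the TATA box. Among all windows these motifs stood at 14.7%, 44.9%, 37.4% and 13.6%. Such matches describe letters in a window and not binding, and windows cover few members.

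Peaks of the members were missing from sgArid1a replicate 1 more than 2 times as often as from replicate 2. Replicate 1 lacked a peak at 6996 members (69.1%) and replicate 2 at 3126 (30.9%), a ratio of 2.24. As shares of the 59305 distal sgScramble regions these were 11.8% (11.5% to 12.1%) and 5.27% (5.09% to 5.45%). Replicate 1 also had the shorter list, with 65353 peaks over 53.7 Mb, against 71255 peaks over 62.6 Mb in replicate 2. The sgScramble lists held 82319 and 85613 peaks over 73.9 and 75.8 Mb. When all lists were shortened to equal length, 3663 members (63.6%) were missing from replicate 1 and 2100 from replicate 2. The part that list length plays in the split was not tested. Distal sgScramble regions that both sgArid1a lists lacked numbered 8965 (15.1%; 17002 without sgScramble replicate 1 and 14791 without replicate 2), and 40218 (67.8%) had a peak in all lists.

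Absence from one sgArid1a list went with absence from the other. Of the distal sgScramble regions missing from replicate 1, 56.2% were also missing from replicate 2, against 7.21% of those present in replicate 1. Of those missing from replicate 2, 74.1% were also missing from replicate 1, against 14.8% of those present in replicate 2. The 56.2% varied with strength, from 69.3% up to the 10th percentile to 26.5% above the 90th. The 7.21% fell as well, from 16.6% up to the 10th percentile to 0.587% above the 90th. The control lists also shared absences. Of distal regions in both sgArid1a lists and missing from sgScramble replicate 1, 43.4% (713 of 1643) were missing from sgScramble replicate 2. The reverse share was 49.1% (713 of 1453). The single-list pattern of the members was rarer near genes, at 661 of 13751 regions within 1 kb of a protein-coding gene end (4.81%). With the groups exchanged it was also rarer, since 1670 of the 42601 distal regions in both sgArid1a lists (3.92%) held a peak in exactly 1 sgScramble list. That exchanged class was nearly balanced between the control libraries, with 930 regions missing from sgScramble replicate 1 and 740 from replicate 2. With lists of equal length the classes held 5763 and 2629 regions.

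In strength, the members lay between the other classes. The fold, the signal of a peak over background, was ranked within each list as a percentile, called its rank, and strength is the mean of the sgScramble ranks. In bulk libraries, DNA open in fewer cells and DNA less open in each cell cannot be told apart. The median strength was 37.1 in members (quartiles 21.9 and 53.8), against 28.3 in regions missing from both sgArid1a lists and 63.5 in regions of all lists. The kinds of member hardly differed, with 37.5 for those missing from replicate 1 and 36.3 for those missing from replicate 2. Above the 50th percentile stood 3079 members (30.4%), against 18.2% of the regions missing from both and 67.1% of those in all lists. Above the 80th stood 410 members (4.05%), against 1.54% and 25.9%.

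The member share was highest a little above the weakest end. It was 24.1% up to the 10th percentile, 28.9% between the 10th and 20th and 28.3% between the 20th and 30th. It was 17.9% between the 50th and 60th percentile and 2.17% above the 90th. The share missing from both sgArid1a lists began higher, at 36.6%, and ended lower, at 0.574%. From the 30th percentile upward a region was more often missing from 1 sgArid1a list than from both. Members missing from replicate 1 outnumbered those missing from replicate 2 in each of the 10 bins of 10 percentiles.

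**Figure D1:**
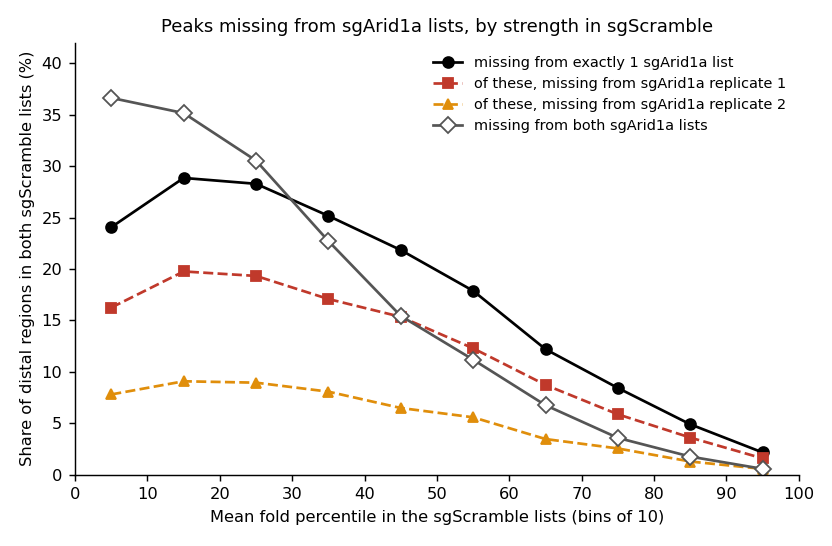
Share of distal regions in both sgScramble lists (y axis, %) that lacked a peak in exactly 1 sgArid1a list (black circles), split by the replicate lacking it (dashed lines), or in both (open diamonds), in bins of 10 percentiles of strength (x axis). The black line peaks at 28.9% between the 10th and 20th percentile and is above the open diamonds from the 30th percentile on.

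The members were also intermediate in length. Peaks of the sgScramble lists covered a median of 562 bp of a member (quartiles 417.5 and 784 bp, mean of both lists), against 467.5 bp in regions missing from both sgArid1a lists and 868 bp in regions of all lists. This held at matched strength. Between the 40th and 50th percentile the medians were 550.5 bp in members, 461.5 bp in regions missing from both and 860.25 bp in regions of all lists. Above the 90th percentile they were 518 bp, 487.5 bp and 859 bp.

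The peak that remained in 1 sgArid1a list was shorter than in the control lists. Its median length was 423 bp, or 79.5% of the sgScramble length of the same region (quartiles 57.8% and 105%). At members missing from replicate 1, the replicate 2 peak measured 442 bp (81.0%), and at members missing from replicate 2, the replicate 1 peak measured 379.5 bp (76.0%). The same lists also had shorter peaks at regions kept in all lists, though by less. There the medians were 92.5% of the sgScramble length in replicate 2 and 83.7% in replicate 1. Between the control libraries, sgScramble replicate 1 peaks at members had a median of 98.3% of the replicate 2 length, with wide quartiles of 77.6% and 123%. In the exchanged class the remaining sgScramble peak was 98.8% of the mean sgArid1a length.

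**Figure D2:**
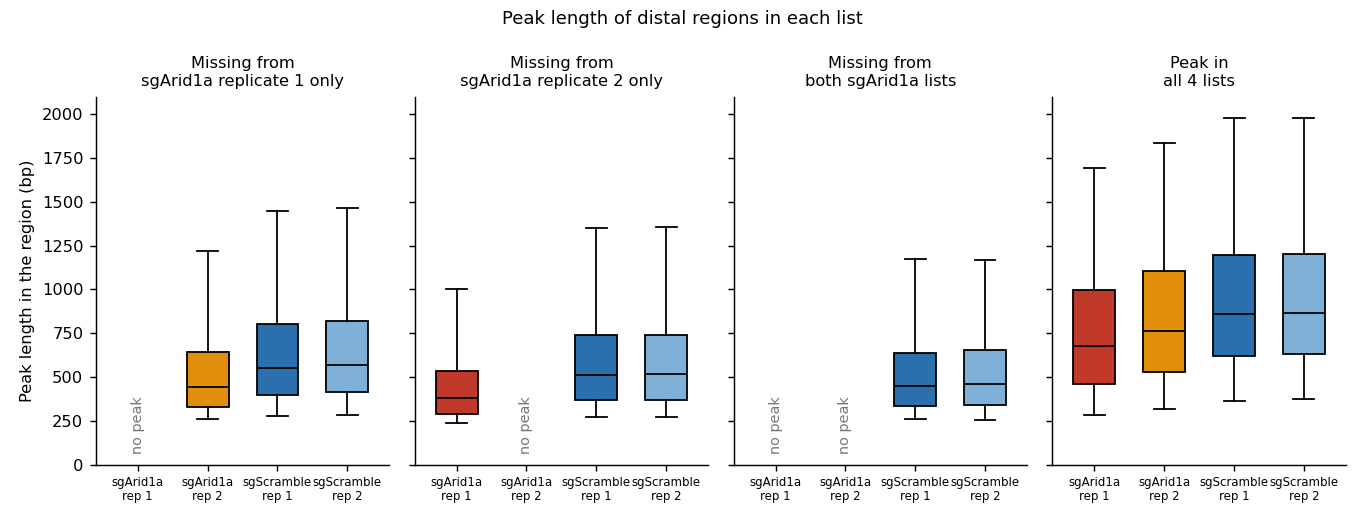
Length of DNA covered by peaks within a region (y axis, bp) in each of the 4 lists, for distal regions missing from sgArid1a replicate 1 only, from replicate 2 only, from both sgArid1a lists, or from none. Boxes span the quartiles with the median as a line, and whiskers run from the 5th to the 95th percentile. The remaining sgArid1a peak (medians 442 and 379.5 bp) lies below the medians of both sgScramble boxes of the same panel, and the boxes overlap.

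Single members varied widely around these medians. The remaining peak was shorter than the sgScramble mean at 7192 members (71.1%) and shorter than both sgScramble peaks at 56.7%. Remaining replicate 1 peaks were shorter than that mean at 74.4% and replicate 2 peaks at 69.5%, against 78.4% and 66.7% at regions of all lists. A shorter peak was thus less frequent at members than at kept regions in replicate 1, and slightly more frequent in replicate 2. The remaining peak was under 50% of the sgScramble mean at 1695 members (16.7%). That share was 19.99% in replicate 1 and 15.3% in replicate 2, against 12.3% and 6.16% at regions of all lists. At 2049 members (20.2%) it was longer than both sgScramble peaks, so a peak missing from one list did not always go with a shortened one in the other.

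The gap to kept regions was wider among strong members. Up to the 10th percentile, the remaining replicate 1 peak had a median of 80.7% of the sgScramble length, against 85.9% in regions of all lists. Above the 90th percentile these were 67.8% and 89.9%. For replicate 2 they were 82.8% and 94.4% up to the 10th percentile and 77.5% and 95.8% above the 90th. The top bin held 27 members with a remaining replicate 1 peak and 75 with a remaining replicate 2 peak. Between the 20th and 30th percentile, replicate 1 showed no gap, at 80.3% in both classes.

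**Figure D3:**
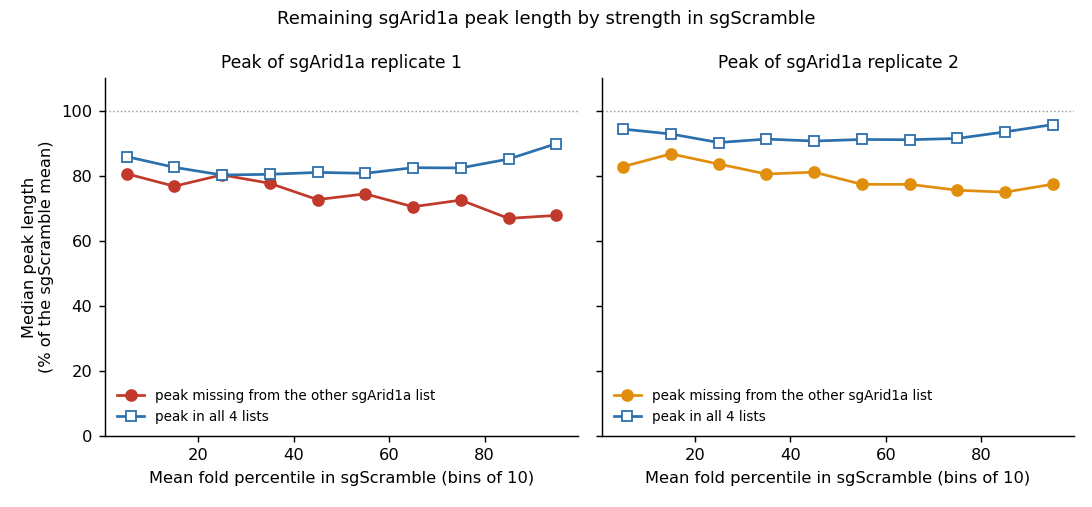
Median peak length in sgArid1a replicate 1 (left) and replicate 2 (right) as a percentage of the sgScramble mean (y axis), in bins of 10 percentiles of sgScramble strength (x axis), for regions whose peak is missing from the other sgArid1a list (filled circles) and regions with a peak in all lists (open squares). Above the 90th percentile the circles stand at 67.8% and 77.5% and the squares at 89.9% and 95.8%.

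The remaining peaks were also low in rank and close to the significance limit of the lists. Their median fold percentile was 25.9 in replicate 2 and 21.9 in replicate 1, against 57.6 and 53.7 for the peaks of these lists at regions kept in all lists. Their median −log10 q was 2.31 in replicate 2 and 1.91 in replicate 1, against 4.10 and 4.21 for all members in sgScramble replicates 1 and 2. The lowest value among remaining peaks was 1.01, close to the lowest that any list held. A −log10 q below 2 was found for 38.6% of the remaining replicate 2 peaks (2701 of 6996) and 54.5% of the remaining replicate 1 peaks (1703 of 3126). At regions of all lists those shares were 6.35% and 11.3%. Over whole lists they were 19.5% and 17.1% in sgArid1a replicates 1 and 2, against 8.19% and 9.98% in sgScramble replicates 1 and 2. Since q depends on depth and background, which are unknown, a missing peak does not show that the DNA was closed.

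Few members had a peak of the lacking list within 1 kb, and regions missing from both sgArid1a lists were alike in this. The nearest peak of sgArid1a replicate 1 lay a median of 8083.5 bp from the members it lacked, and within 1 kb at 63 of 6996 (0.901%). For replicate 2 the median was 7438 bp, and 51 of 3126 (1.63%) had a peak within 1 kb. Within 10 kb the shares were 58.4% for replicate 1 and 60.4% for replicate 2. At regions missing from both sgArid1a lists, the medians were 8258 bp for replicate 1 and 7366 bp for replicate 2. There 1.16% and 1.32% had a peak within 1 kb, and 56.6% and 60.2% within 10 kb. The spacing is therefore not particular to the members. The remaining peak was split into more than 1 piece at 0.214% of members in replicate 2 and 0.160% in replicate 1.

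The strongest members of each kind were named for their rank in the sgScramble lists. The first lay inside Sema3e, which encodes a semaphorin that guides axons and vessels through plexin receptors, at chromosome 5, 14107372 to 14107800, 82096 bp from the nearer gene end. Its peak measured 0 and 355 bp in sgArid1a replicates 1 and 2, and 383 and 429 bp in sgScramble replicates 1 and 2. The fold percentile was 34.4 in sgArid1a replicate 2, against 99.7 and 99.0 in the sgScramble lists. The sgArid1a peak was thus little shorter than the control peaks but far lower in rank. The next strongest missing from replicate 1 lay inside Syt16, a member of the synaptotagmin family (chromosome 12, 74218536 to 74218962), with 0 and 425 bp in sgArid1a and 298 and 278 bp in sgScramble. Here the remaining peak kept a high rank, at 86.1, against 95.3 and 99.0 in sgScramble. For the others of this kind the nearest gene ends were those of Sall3, Gm32742 and Sergef, with remaining ranks of 67.4, 55.4 and 39.5. The region named for Sall3 lay between genes, 633392 bp from that gene end.

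Among members missing from replicate 2, the strongest lay between genes on chromosome 3 (112362115 to 112362504), with the closest protein-coding gene end, that of the amylase gene Amy2b, 785152 bp away. Its peak measured 357 and 0 bp in sgArid1a, against 304 and 329 bp in sgScramble, and its rank was 84.5, against 97.3 and 95.9. The next lay inside Mef2a, which encodes a MADS-box transcription factor (chromosome 7, 67359552 to 67359995), with 320 and 0 bp in sgArid1a and 373 and 444 bp in sgScramble. Its rank was 35.1 in sgArid1a replicate 1, against 94.2 and 94.5 in the sgScramble lists. Members inside Mdga2, a cell adhesion gene of neurons, Arsj, an arylsulfatase, and Lrrcc1, a centrosomal protein, followed, with remaining ranks of 38.1, 35.6 and 18.5. At these 10 members, chosen for high sgScramble ranks, the gap between remaining and sgScramble rank was smallest at Syt16 and Amy2b.

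The longest remaining peaks belonged to weak members. Inside Lmtk2, a membrane-bound kinase gene, a peak of 2922 bp in sgArid1a replicate 2 faced none in replicate 1, and peaks of 501 and 444 bp in the sgScramble lists (chromosome 5, 144118452 to 144121373). Its fold percentile was 11.0 in sgArid1a replicate 2, against 33.0 and 40.6 in sgScramble. Inside Camk4, a calcium- and calmodulin-dependent kinase gene (chromosome 18, 33111975 to 33114124), sgArid1a replicate 1 had 2150 bp and replicate 2 none, against 285 and 356 bp in sgScramble. At Zeb2, a zinc finger repressor of the epithelial state that is also used in melanocytes, the peak measured 2099 and 0 bp in sgArid1a, against 1149 and 1516 bp in sgScramble. The others were at Nfib (2678 bp) and Osbp2 (2432 bp) in replicate 2 and at Foxk1 (2045 bp) in replicate 1. These 6 had remaining ranks between 4.56 and 29.5.

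**Figure D4:**
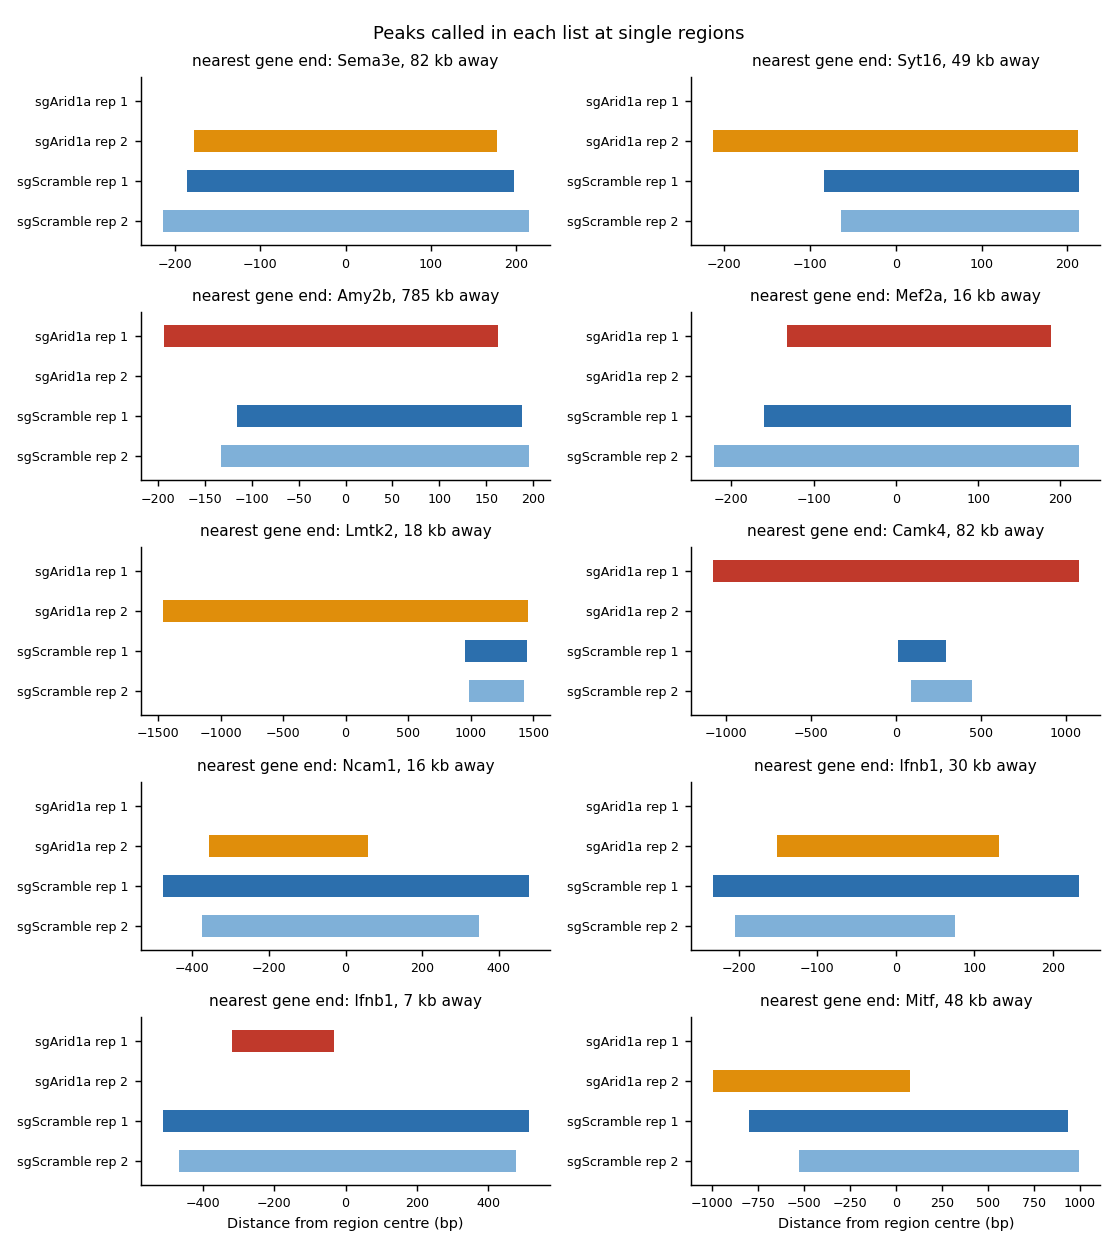
Extent of the peak in each list (rows: sgArid1a replicates 1 and 2, then sgScramble replicates 1 and 2) at 10 members, as distance from the region's centre (x axis, bp, with a scale of its own in each panel), titled by the nearest gene end and its distance. A row without a bar had no peak. The sgArid1a bar at Lmtk2 spans 2922 bp, against 501 and 444 bp for the sgScramble bars, while at Ifnb1, 7 kb away, it spans 285 bp, against 1027 and 947 bp.

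The values on either side of the 1 kb limit that defines a distal region are given for 1 region each. The nearest member inside it on a chromosome other than 18 lay 1008 bp from an end of Map4k5 (chromosome 12, 69801476 to 69802749), with a strength of 35.8 and a remaining peak of 117.6% of the sgScramble length. Just outside, 999 bp from an end of Sash1 (chromosome 10, 8723216 to 8723719), a region with the same pattern had a strength of 56.9 and kept 72.8%.

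In genomic position the members resembled the other distal regions, with small shifts. Inside protein-coding genes lay 57.2% of members, slightly above the 56.3% of regions missing from both sgArid1a lists and 54.8% of those in all lists. This share was 58.1% for members missing from replicate 1 and 55.2% for those missing from replicate 2. The median distance to a gene end was 23742.5 bp in members. It was 27194 bp in regions missing from both sgArid1a lists and 20546 bp in regions of all lists. The member share was 15.7% at 1 to 10 kb from a gene end, 17.3% at 10 to 50 kb, 17.4% at 50 to 100 kb and 18.6% beyond 100 kb. Within 1 kb of the end of a long noncoding RNA gene lay 417 members (4.12%), against 3.59% of regions missing from both and 6.45% of those in all lists. Over chromosomes with more than 7 such regions, the lowest share was 15.9% (chromosome 15) and the highest 18.7% (chromosome 17).

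Members were only slightly gathered together, and this was not particular to them. The nearest other distal sgScramble region was itself a member for 18.5% of members, against 17.1% over all such regions. It was missing from both sgArid1a lists for 15.6%, against 15.2% over all. Regions missing from both sgArid1a lists had a member as nearest region nearly as often as members did. Where the nearest region lay within 10 kb, it was a member for 17.5% of members and 17.6% of regions missing from both. Over all distal sgScramble regions with a neighbour that close, the share was 16.7%. Neighbouring members did not lean toward the same sgArid1a library. A neighbour missing from replicate 1 was found for 12.7% of members missing from replicate 1 and 13.4% of members missing from replicate 2. A neighbour missing from replicate 2 was found for 5.96% of members missing from replicate 1 and 4.70% of members missing from replicate 2.

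By the nearest gene end within 50 kb, 7066 members were assigned to 5182 of the 13275 genes that had a distal sgScramble region, and 3056 members were assigned to none. Of the assigned regions 16.7% were members, and the counts per gene given here cover assigned regions only. Most of these genes had few: 3804 had 1 member, 1005 had 2, and 373 had 3 or more. Of the 5182 genes, 1983 also had a region missing from both sgArid1a lists. The matching share over all 13275 genes is not given, and genes with more regions can more easily hold both classes. This count therefore shows no link between the classes. Genes with the most members were chosen for that number, so their counts are descriptions.

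The highest count, 7, was reached at Igf2bp2 and Hpcal1. Igf2bp2 encodes an RNA-binding protein that stabilises mRNAs, and 7 of its 13 regions were members, 5 missing from sgArid1a replicate 1 and 2 from replicate 2. Their lengths were nearly kept, with remaining peaks of 90.8% to 154% of the sgScramble mean. A stretch within the gene at chromosome 16, 22150004 to 22152228, had 0 and 2131 bp in sgArid1a, against 2128 and 2169 bp in sgScramble. Hpcal1, a neuronal calcium sensor gene, had 7 of 14, and its remaining peaks ran from 33.1% to 127%. At chromosome 12, 17773680 to 17774492, its peak measured 235 and 0 bp in sgArid1a, against 605 and 813 bp in sgScramble.

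Dock10 and Nfib, a transcription factor of the nuclear factor I family, had 6 each, of 10 and 14 regions. In both genes 5 of the 6 were missing from replicate 1. At Dock10, a region on chromosome 1 (80730408 to 80730983) had 0 and 369 bp in sgArid1a, against 370 and 553 bp in sgScramble, and a rank of 62.9 against 91.7 and 83.0. At Nfib, a region on chromosome 4 (82264906 to 82266493) kept 248 bp in sgArid1a replicate 1 and none in replicate 2, against 1588 and 1350 bp in sgScramble, the smallest remaining share at these 2 genes (16.9%).

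Ncam1, the neural cell adhesion molecule, was the one gene of these 10 with all its assigned regions, 5 of 5, among the members. Stretches of this long gene more than 50 kb from both its ends were not counted. Of the 5 members, 4 were missing from replicate 1 and 1 from replicate 2. The strongest lay on chromosome 9 (49815847 to 49816800), with 0 and 416 bp in sgArid1a and 954 and 725 bp in sgScramble. Its rank was 32.9, against 78.4 and 87.9. Mgat5b, a glycosyltransferase gene, had 5 members of 6 regions, and Eprs, a tRNA synthetase gene, 5 of 7. St7 and Stam2, a gene of endosomal sorting, had 5 of 8 each, and Lyrm9 had 5 of 9. At Eprs and Stam2 all 5 were missing from replicate 1, while at St7 3 of 5 were missing from replicate 2.

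The 16 gene lists, which were drawn up with earlier results of these data known, lay mostly close to the 16.7% of all genes. In all 16 lists more members were missing from replicate 1 than from replicate 2, as over all members (69.1%). The melanocyte lineage list was the lowest. Of its 165 regions 15 were members (9.09%, 5.18% to 14.6%), at 9 of 27 genes. These regions were weaker than average in rank, with a median strength of 35.4 against 51.0 over all assigned regions, but longer, with 907 against 747.5 bp of sgScramble peak. The members there had a median remaining length of 65.7%. The list's share lay below that of all genes in each setting, while its value and the gap varied. It was 5.13% with lists of equal length (11.8% over all genes) and 1.89%, 1 of 53 regions, with assignment within 10 kb (15.7%). It was 17.0% when peaks had to cover 50% of a region (23.5%) and 16.5% with peaks of at least 500 bp (21.1%). Without sgScramble replicate 2 the gap was smaller, at 14.1% (17.6%).

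Single genes of the lineage show what that share is made of. Mitf, the lineage's central transcription factor, had 1 member among 16 regions, 12 in all lists and 3 missing from both sgArid1a lists. The member lay 47940 bp from a gene end (chromosome 6, 97971434 to 97973420), with 0 and 1069 bp in sgArid1a and 1736 and 1518 bp in sgScramble. Tyr, which encodes tyrosinase, the first enzyme of melanin synthesis, had no member among 5 regions, and Sox10 had none among 4. Of the pigment genes, Tyrp1 and Dct also had none, with 7 of 7 and 9 of 9 regions in all lists, while Pmel had 1 member of 2 regions. Kit, a receptor tyrosine kinase of melanocyte precursors, had 1 of 5. Over the 10 markers, 3 of 65 regions were members, 9 were missing from both and 53 were in all lists. Tfec, a relative of Mitf, had 3 members of 5, Zeb2 3 of 13 and Oca2, a melanosomal transporter gene, 2 of 7.

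The melanoma phenotype switch list, which holds genes of the invasive or mesenchymal-like state, had the highest share, with 23 of 104 regions (22.1%, 14.6% to 31.3%) at 12 of 23 genes. The interval included the 16.7% of all genes, and the order changed with the setting. The list's share was 11.4% with the upper 50% of each list (17.3% over all genes), 7.14% at a −log10 q of at least 5 (17.0%) and 19.5% with lists of equal length (11.8%). Nrp1, a co-receptor for semaphorins and VEGF, had 5 members of 12 regions. The strongest of them lay on chromosome 8 (128311747 to 128312447), with 0 and 388 bp in sgArid1a, 582 and 701 bp in sgScramble, and a rank of 38.4 against 78.5 and 82.0. Hmga2, a chromatin protein that bends DNA, had 5 of 16. Its strongest, on chromosome 10 (120324754 to 120325590), had 0 and 480 bp in sgArid1a, against 717 and 758 bp in sgScramble. Tcf4, a basic helix-loop-helix factor, had 3 of 5.

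**Figure D5:**
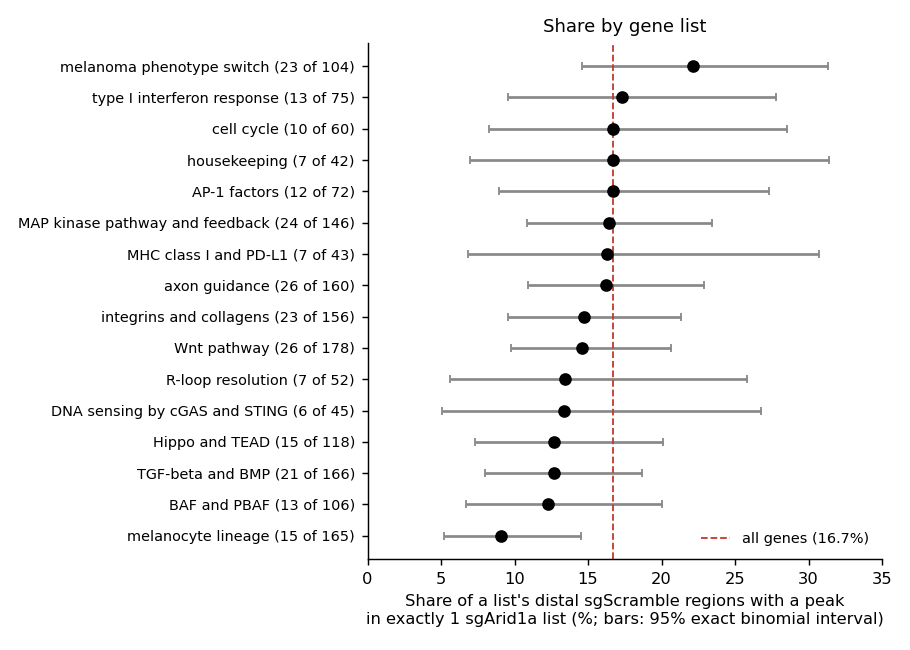
Share of each gene list's distal sgScramble regions that held a peak in exactly 1 sgArid1a list (x axis, %), with 95% exact binomial intervals as bars and counts beside the names. The dashed line is the 16.7% of all genes, and the interval of the melanocyte lineage list (5.18% to 14.6%) lies below it.

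Lists tied to the series title were close to all genes. Type I interferon genes had 13 members of 75 regions (17.3%, 9.57% to 27.8%) at 10 of 27 genes. Ifnb1, which encodes interferon beta, had 2 members of 4 regions on chromosome 4, 1 of each kind. The farther, at 88491769 to 88492235, had 0 and 283 bp in sgArid1a and 467 and 281 bp in sgScramble. The nearer, at 88530222 to 88531248 and 7428 bp from the gene, had 285 and 0 bp in sgArid1a and 1027 and 947 bp in sgScramble. Irf1, a transcription factor of the interferon response, had 2 of 5, and Ifnar2, a subunit of the interferon receptor, 2 of 6. The list of DNA sensing by cGAS and STING had 6 of 45 (13.3%, 5.05% to 26.8%) at 5 genes. Rad50, a double-strand break repair gene, had 2 of 3, and the other genes, among them Ikbke and Enpp1, had 1 each.

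R-loop resolution genes had 7 of 52 (13.5%, 5.59% to 25.8%), each at a different gene. Rnaseh1, which encodes the nuclease that cleaves RNA in RNA:DNA hybrids, had its single assigned region among the members. It had 0 and 683 bp in sgArid1a and 828 and 445 bp in sgScramble. Fancd2, a gene of crosslink repair, likewise had 1 of 1. The list of MHC class I and PD-L1 had 7 of 43 (16.3%, 6.81% to 30.7%). Its member at Ifngr2, a subunit of the interferon gamma receptor, was unusual in rank. It had 344 and 0 bp in sgArid1a and 756 and 920 bp in sgScramble, and a fold percentile of 95.6 in sgArid1a replicate 1, against 96.8 and 76.3 in sgScramble. This example was chosen after its values were seen. Canx and Pdia3, chaperone genes of the same pathway, had 1 of 2 each, and Cd274, which encodes PD-L1, had none, with 1 region in all lists.

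Genes of the remodelling complex itself, in the BAF and PBAF list, had 13 members of 106 regions (12.3%, 6.69% to 20.1%) at 9 of 24 genes. The interval includes the 16.7% of all genes, and with peaks of at least 500 bp the share was 26.0%, against 21.1% over all genes. Arid1a had no member: of its 6 distal regions 3 were in all lists and 3 missing from both sgArid1a lists. Arid1b had 3 of 14, all missing from replicate 1. The strongest of these lay 4854 bp from a gene end (chromosome 17, 5352510 to 5353526), with 0 and 412 bp in sgArid1a and 883 and 984 bp in sgScramble, and a rank of 35.6 against 81.4 and 81.8. Smarca4, an ATPase of the complex, had 2 of 10 and Smarcd3, an accessory subunit, 2 of 6.

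Signalling lists also lay close to all genes or a little below. MAP kinase genes had 24 of 146 (16.4%), with Ksr1, a scaffold, at 4 of 14 and the kinase Braf at 3 of 9. All members at Braf were missing from replicate 1. Wnt genes had 26 of 178 (14.6%), with Rspo2, a secreted enhancer of Wnt signalling, at 4 of 9, and the receptor Ryk and the ligand Wnt7b at 3 of 11 each. Genes of TGF-beta and BMP signalling had 21 of 166 (12.7%). Smad6, an inhibitor, had 3 of 17, the ligand Bmp6 2 of 3 and the receptor Tgfbr2 2 of 6. Genes of the Hippo pathway had 15 of 118 (12.7%), with Vgll3, a TEAD cofactor, at 3 of 6, Wwc1 at 3 of 8 and the target gene Ccn2 at 1 of 2.

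The remaining lists differed little from 16.7%. AP-1 factors had 12 of 72 (16.7%), with Fos at 3 of 11, Bach1 at 2 of 7 and Jdp2 at 2 of 10. Axon guidance genes had 26 of 160 (16.3%), with Sema3c at 3 of 6, the receptor Plxnb1 at 2 of 4 and Sema3e at 2 of 4. The strongest member inside Sema3e was not among these 2, since it lay more than 50 kb from a gene end. Integrins and collagens had 23 of 156 (14.7%), with the basement membrane collagens Col4a1 at 3 of 8 and Col4a2 at 3 of 12, and Col1a1 at 2 of 4. Cell cycle genes had 10 of 60 (16.7%), and all 3 assigned regions of E2f3, a transcription factor of S-phase entry, were members. One of them, on chromosome 13 (30001060 to 30001885), had 263 and 0 bp in sgArid1a and 751 and 696 bp in sgScramble, with a rank of 7.20 against 73.6 and 79.2. E2f7 had 2 of 7 and Rbl1 1 of 2. Housekeeping genes, listed as a comparison, had 7 of 42 (16.7%), with Tfrc at 2 of 4, Ywhaz at 2 of 11 and Gusb at 1 of 1.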

How the data were processed

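The authors called broad peaks in each of the 4 libraries by itself and deposited 1 list per library. For every peak the deposited columns give the authors' score, fold (a ratio to background) and both the −log10 p-value and the −log10 q-value. The score was the integer part of 10 times the −log10 q at no fewer than 99.99% of peaks of a list. STAR 2.5.3a, HOMER, GRCm38 and mm10 are named in the submitters' processing notes. Which peak caller was used, and whether read ends were moved for the Tn5 offset, is not given in the sources used here. As the deposited lists hold peaks without counts, depth is unknown and folds were ranked within a list only.

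Peaks sharing at least 1 bp were merged, and a list was counted as having a region where any of its peaks overlapped it. Gene ends came from RefSeq GRCm38.p6 (21887 protein-coding genes), and regions were assigned to the nearest protein-coding gene end within 50 kb. Of 440 gene list entries, 2 were not matched. The exact permutation test of 2 libraries against 2 cannot go below p = 0.333, and the rule used all 4 lists, so nothing was tested. Intervals are 95% Clopper-Pearson. Named genes were the 10 with most members, up to 3 per list with most members, the 5 strongest members and the 3 with the longest remaining peak for each sgArid1a replicate, and Arid1a, Mitf, Sox10, Tyr, Ifnb1 and Cd274. Of the genes this rule names, 2 are not reported here. The members, the gene lists and this rule were chosen with earlier results of these data known. The merging, the classes and the distance to the nearest gene end were tested on simulated lists. Which gene a region was assigned to was not checked there. Python 3.11.15, numpy 2.4.6, pandas 2.3.3, SciPy 1.17.1 and matplotlib 3.10.9 were used.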

Additional observations from a re-analysis of the deposited data

How the results depend on the processing

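Merging peaks within 1 kb and a distance of over 2.5 kb from gene ends left the counts within a factor of 1.5 of those above. Strength and sgScramble length moved by less than the standard deviation between the medians of the 2 sgScramble lists. Remaining length and rank moved by less than that between the 2 kinds of member. At a −log10 q of at least 5 there were 6223 members, 997 of them missing from sgArid1a replicate 2. Their median sgScramble percentile was 66.8, their sgScramble length 775 bp, the remaining length 85.8% and the remaining percentile 65.0, and the exchanged class held 324 regions. With only the peaks above the middle of each list's folds (upper 50%) there were 4902 members (17.8%), 3544 missing from replicate 1 and 1358 from replicate 2, with 69.8, 772 bp, 84.5% and 61.1 for the same quantities. With lists of equal length there were 5763 members (12.4%), 3663 of them missing from replicate 1, at percentile 51.1, with a remaining percentile of 32.1, and 2629 regions in the exchanged class. With a 50% overlap the share was 23.6%, at percentile 48.6, 679.5 bp, 87.7% remaining length and remaining percentile 35.6. With peaks of at least 500 bp it was 21.0%, with 2077 missing from replicate 2, at percentile 53.2, 806.5 bp, 89.5% and 39.1, and 1097 regions in the exchanged class. A stricter list turns weak peaks into missing ones by construction, so members then stand higher in rank. Without one sgScramble replicate the number of members ranged from 12101 to 12811, the share from 17.82% to 18.03%, the percentile from 33.3 to 34.0, the length from 509 to 513 bp and the remaining length from 85.1% to 85.7%. Regions missing from both sgArid1a lists numbered 9731 at a −log10 q of at least 5, 5285 with the upper 50%, 3943 with lists of equal length, 11596 with a 50% overlap and 6724 with peaks of at least 500 bp. Members missing from replicate 1 outnumbered those missing from replicate 2 in each of these settings. Of 160 gene list shares under the alternatives, 136 lay within the interval of the value given above. Leaving out an sgArid1a replicate gives no value, since the rule needs both lists. No paired analysis was possible because no result comes from a fitted model. Depth limits the reading of all these values: it is unknown, it moves q and fold, and it may differ between the libraries.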

Other observations

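Of 1005 miRNA hairpins in the RefSeq table, 6 lay wholly inside members. Hairpins in the other distal regions were not counted, so the 6 cannot be called many or few. Mir199a-1, Mir185 and Mir6928 lay in members missing from sgArid1a replicate 1, and Mir721, Mir3965 and Mir8096 in members missing from replicate 2. The member at Mir199a-1 (chromosome 9, 21496090 to 21497825) had 0 and 344 bp of peak in sgArid1a, against 1087 and 1398 bp in sgScramble, and that at Mir185 (chromosome 16, 18326305 to 18327498) had 0 and 877 bp, against 1194 and 972 bp. The member at Mir3965 (chromosome 5, 134326093 to 134327489) was longer in sgArid1a replicate 1, with 1312 and 0 bp in sgArid1a and 326 and 413 bp in sgScramble. A hairpin inside an open region does not show that the miRNA is made there.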
